A study of Mus musculus with 4 samples.

Results

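The genes described here are 10 regulators and targets of the hypoxia-inducible factors (HIF), namely Hif1a, Epas1, Arnt, Vhl, Hif1an, Egln1, Egln2, Egln3, Bnip3 and Vegfa. They were taken by symbol from a table of 23859 gene symbols, and each stood on a single locus of its own. RNA was sequenced from peritoneal macrophages of C57BL/6 mice aged 6 weeks, in a Ch25h_KO group (ApoE-/-/Ch25h-/-) and a Ch25h_WT group (ApoE-/-/Ch25h+/+) of 2 libraries each. Both groups carry the ApoE-/- label, so Ch25h, the gene of cholesterol 25-hydroxylase, is the labelled difference between them. Both groups received 3% thioglycolate, a sterile irritant that draws macrophages into the peritoneal cavity, 3 days before collection, and the cells were then cultured in serum-containing medium. The labels name 12 mice per group and do not say how they were divided between the libraries. Errors are SD over n = 2 libraries, and nothing in the labels says whether the spread behind the p-values is biological or technical.

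HIF is a transcription factor made of an oxygen-sensitive alpha subunit and a stable beta subunit. In the presence of oxygen, prolyl hydroxylases of the EGLN family mark the alpha subunit for capture by the VHL ubiquitin ligase and destruction, and the asparagine hydroxylase encoded by Hif1an blocks its contact with coactivators. When oxygen is scarce the alpha subunit is kept and switches on genes of glycolysis, blood vessel growth and mitochondrial turnover, and in macrophages HIF-1 is also raised by inflammatory signals at normal oxygen.

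The labels were checked first. Ch25h had 4.25 and 5.53 FPKM in the Ch25h_KO libraries, against 63.3 and 65.3 FPKM in the Ch25h_WT libraries (FPKM, fragments per kilobase of transcript, scaled to the mapped fragments of the library). Apoe had 3683 and 3373 FPKM in the Ch25h_KO libraries, against 614 and 609.9 FPKM in the Ch25h_WT libraries, although all 4 are labelled ApoE-/-, so the groups also differ at this gene. Macrophage markers were present, with all 8 above the filter and summed levels of 28100 to 28800 FPKM in Ch25h_KO and 26730 to 27670 FPKM in Ch25h_WT. Summed mast cell markers were 156.2 to 158.7 FPKM in Ch25h_KO and 223.3 to 229 FPKM in Ch25h_WT. Neutrophil markers summed to 116.3 to 116.4 FPKM in Ch25h_KO and 71.8 to 82.4 FPKM in Ch25h_WT, and monocyte markers to 180.2 to 192.1 FPKM in Ch25h_KO and 145.9 to 151 FPKM in Ch25h_WT. Of the mast cell, neutrophil and monocyte lists 0 of 6, 0 of 2 and 1 of 5 tested genes passed (Ly6c2, higher in Ch25h_KO), and the neutrophil granule genes Mpo, Elane, Camp, Ngp and Retnlg averaged under 1 FPKM. B cell markers summed to 284.9 to 300.3 FPKM in Ch25h_KO and 317.4 to 320.8 FPKM in Ch25h_WT. Erythroid markers summed to 35.2 to 39.6 FPKM in Ch25h_KO and 27.3 to 28.4 FPKM in Ch25h_WT. Fibroblast or mesothelial markers were low, at 2.09 and 2.29 FPKM summed in Ch25h_KO and 0.774 and 0.706 FPKM in Ch25h_WT, and all 6 averaged under 1 FPKM. T cell markers summed to 3.50 to 4.65 FPKM in Ch25h_KO and 3.28 to 3.58 FPKM in Ch25h_WT, and endothelial markers to 4.24 to 4.54 FPKM in Ch25h_KO and 5.11 to 5.27 FPKM in Ch25h_WT, with Tek at 0 in all 4 libraries. The part of these markers in the results on the HIF genes was not tested. In values of whole cultures, fewer cells of a type and less RNA per cell cannot be told apart.

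Of the 10 HIF genes, Egln3 and Bnip3 fell in the Ch25h_KO libraries and none rose. The threshold was an adjusted p under 0.05 from limma with Benjamini-Hochberg adjustment over 10074 loci averaging 1 FPKM or more, a filter that all 10 passed. In the same fit 0.437% of all loci passed, 0.208% on the lower side. At an unadjusted limma p under 0.05, the number was 6 of 10, with 1 higher and 5 lower, against 20.9% of all loci, 9.38% higher and 11.5% lower. The libraries of the groups did not overlap for 8 of the 10, 2 higher and 6 lower, against 53.7% of all loci, 23.4% higher and 30.3% lower. The median log2 change of the 10 was -0.088, against -0.014 over all loci tested. The genes were chosen with results of these data known, so these counts describe them and give no independent support.

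**Figure D1:**
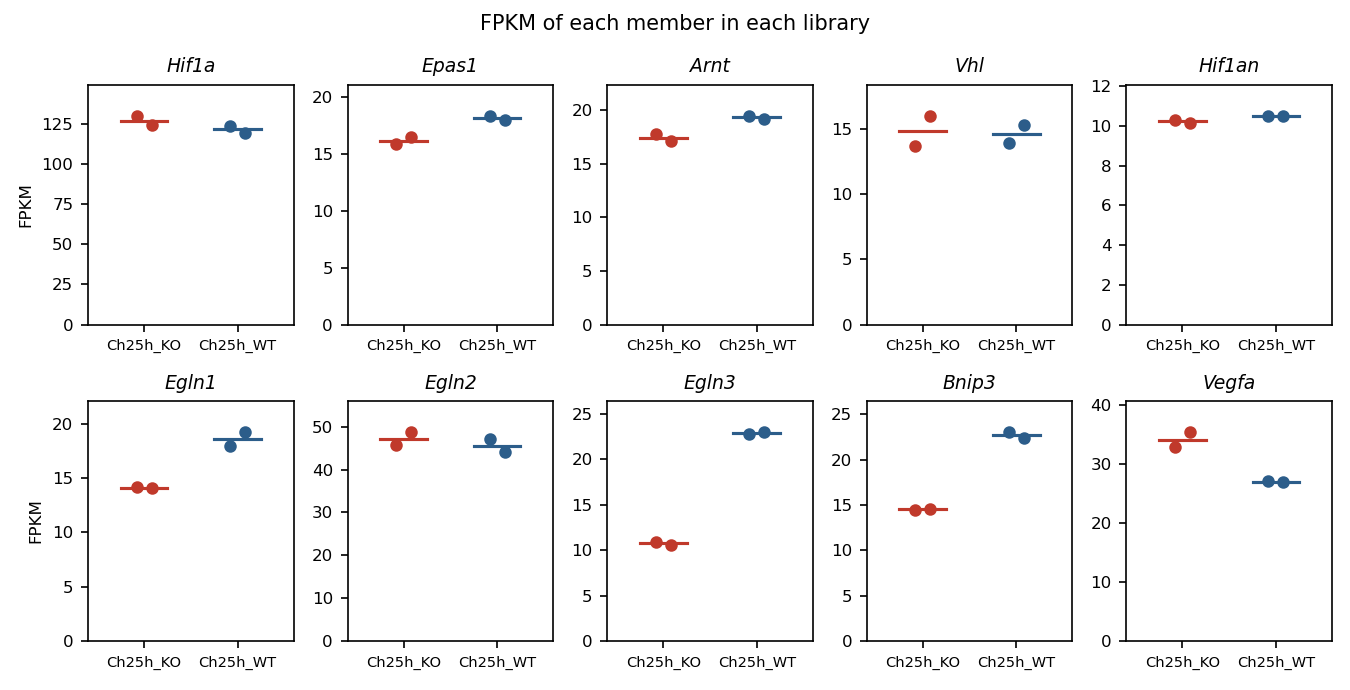
FPKM (y axis, from 0, a scale for each gene) of the 10 HIF genes in the 2 Ch25h_KO libraries (left) and the 2 Ch25h_WT libraries (right). Points are libraries and bars are means. Egln3 and Bnip3 stand lower in Ch25h_KO by far more than the gap between replicates, Vegfa stands higher, and Vhl and Egln2 overlap.

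The HIF subunits differed in level by several-fold and differed little between genotypes. Hif1a, which encodes HIF-1 alpha, had 129.8 and 123.8 FPKM in the Ch25h_KO libraries, against 123.6 and 118.9 FPKM in the Ch25h_WT libraries. The lower Ch25h_KO library stood only just above the higher Ch25h_WT library, and the log2 change on the log2(FPKM + 1) scale was 0.063 (95% interval -0.090 to 0.22, limma adjusted p = 0.575), and 0.029 to 0.097 with a library left out. Epas1, which encodes HIF-2 alpha, had 15.9 and 16.5 FPKM in Ch25h_KO and 18.3 and 18.0 FPKM in Ch25h_WT. Both Ch25h_KO libraries were below both Ch25h_WT libraries, and the log2 change of -0.16 (SE 0.054) did not pass (limma adjusted p = 0.207). Arnt, which encodes the shared beta subunit, had 17.8 and 17.1 FPKM in Ch25h_KO and 19.5 and 19.2 FPKM in Ch25h_WT. It too was lower in both Ch25h_KO libraries without passing, with a difference of -0.14 on the log2 scale (SE 0.054, limma adjusted p = 0.239).

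Hif1a transcripts outnumbered those of the other alpha subunit in every library. Per length, the FPKM ratio of Hif1a to Epas1 was 8.18 and 7.52 in the Ch25h_KO libraries, against 6.74 and 6.60 in the Ch25h_WT libraries. The ratio of Hif1a to Arnt was 7.29 and 7.23 in Ch25h_KO, against 6.34 and 6.19 in Ch25h_WT. Both ratios were higher in each Ch25h_KO library, and an exact two-sided permutation test gave p = 0.33 for each, the smallest that 2 libraries against 2 allow. These ratios, and those between other HIF genes below, were chosen after the values were seen.

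The 3 prolyl hydroxylase genes did not move together. Egln3, which encodes the hydroxylase also called PHD3 and is itself a HIF target, had 10.9 and 10.6 FPKM in the Ch25h_KO libraries, against 22.8 and 23.0 FPKM in the Ch25h_WT libraries. Its Ch25h_KO level was 0.469 of the Ch25h_WT level, far beyond the gap between replicates, and the log2 change was -1.02 (SE 0.052, 95% interval -1.16 to -0.89, limma adjusted p = 0.012). Only 0.0794% of tested loci had a smaller p. Egln1, which encodes PHD2, the main hydroxylase that sets HIF-1 alpha in normal oxygen, had 14.2 and 14.05 FPKM in Ch25h_KO and 17.9 and 19.2 FPKM in Ch25h_WT. The groups did not overlap, and the log2 change of -0.37 (SE 0.060) missed the threshold (limma adjusted p = 0.097). It passed when only loci averaging 5 FPKM or more were tested (adjusted p = 0.048) and with limma's trend and robust options (adjusted p = 0.011). Egln2, which encodes PHD1, had 45.7 and 48.7 FPKM in Ch25h_KO and 47.0 and 44.2 FPKM in Ch25h_WT. Its libraries overlapped, and the log2 change was 0.049 (95% interval -0.12 to 0.22, limma adjusted p = 0.706), and 0.0051 to 0.094 with a library left out.

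The make-up of the hydroxylase transcripts differed between the genotypes accordingly. The 3 genes summed to 70.8 and 73.4 FPKM in the Ch25h_KO libraries, against 87.8 and 86.4 FPKM in the Ch25h_WT libraries. Egln3 held 15.4% and 14.5% of that sum in Ch25h_KO, against 26.0% and 26.6% in Ch25h_WT. Egln2 held 64.6% and 66.4% in Ch25h_KO, against 53.6% and 51.1% in Ch25h_WT. Egln1 held 20.0% and 19.1% in Ch25h_KO, against 20.4% and 22.2% in Ch25h_WT. The differences in share were -11.4 percentage points for Egln3 and 13.1 for Egln2. That of Egln1 was -1.74, and it was -0.837 without Ch25h_WT replicate 2 and -2.65 without Ch25h_WT replicate 1. Each of the 3 had p = 0.33 in an exact two-sided permutation test over the 4 libraries. Egln2 was the most abundant in all 4 libraries. Egln1 stood above Egln3 in Ch25h_KO, at FPKM ratios of 1.30 and 1.32, and below it in Ch25h_WT, at 0.786 and 0.836. Hif1a stood at 1.83 and 1.69 times the summed Egln transcripts in Ch25h_KO, against 1.41 and 1.38 times in Ch25h_WT.

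**Figure D2:**
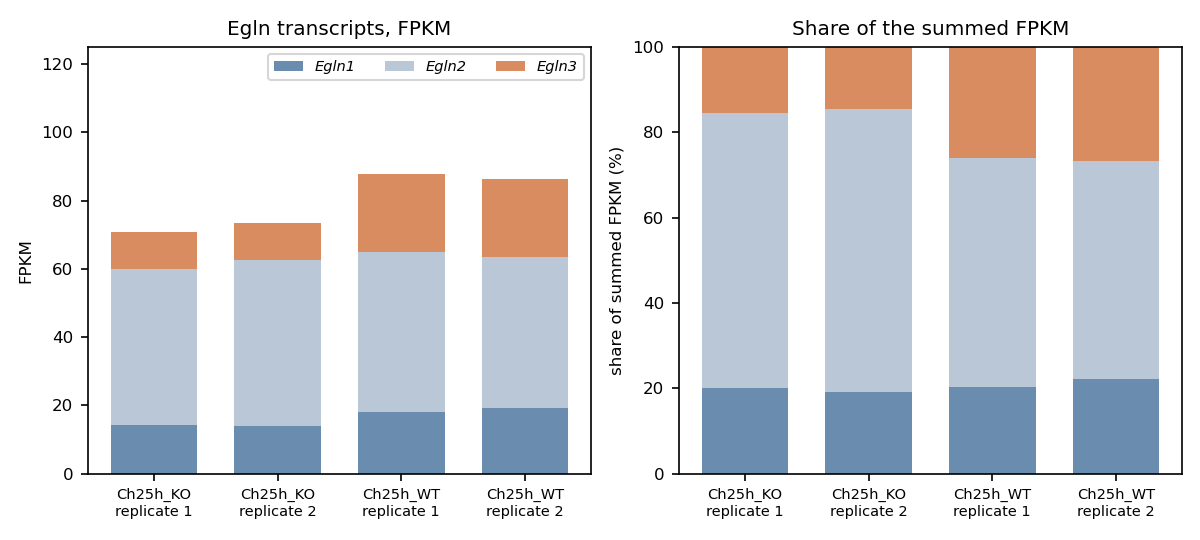
Stacked FPKM of Egln1, Egln2 and Egln3 (left panel) and their share of the summed FPKM in percent (right panel), for each Ch25h_KO and Ch25h_WT library. The Egln3 segment is 14.5% to 15.4% in Ch25h_KO and 26.0% to 26.6% in Ch25h_WT, and Egln2 is the largest segment in each library.

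The remaining brakes on HIF showed no detected change. Hif1an, which encodes the asparagine hydroxylase FIH, had 10.3 and 10.2 FPKM in the Ch25h_KO libraries, against 10.5 and 10.5 FPKM in the Ch25h_WT libraries. The groups were barely separate, and the log2 change was -0.034 (95% interval -0.17 to 0.10, limma adjusted p = 0.742). Vhl, which encodes the part of the ubiquitin ligase that recognises hydroxylated HIF alpha, had 13.7 and 16.02 FPKM in Ch25h_KO and 13.9 and 15.3 FPKM in Ch25h_WT. Its replicates lay further apart than the group means (log2 change 0.017, 95% interval -0.23 to 0.27, limma adjusted p = 0.938), and its sign changed when either Ch25h_KO replicate 2 (-0.089) or Ch25h_WT replicate 1 (-0.048) was left out. A pseudogene, Vhl-ps1, is annotated in mouse, and how reads shared with it were assigned is not given in the sources used here.

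Bnip3 and Vegfa, both known HIF targets, stood on opposite sides. Bnip3, a mitochondrial outer membrane protein that recruits the autophagy machinery, had 14.5 and 14.6 FPKM in the Ch25h_KO libraries, against 23.0 and 22.4 FPKM in the Ch25h_WT libraries. The Ch25h_KO level was 0.642 of the Ch25h_WT level, far beyond the gap between replicates, and the log2 change was -0.61 (SE 0.053, 95% interval -0.74 to -0.47, limma adjusted p = 0.035). Vegfa, the main secreted factor of blood vessel growth, had 33.0 and 35.4 FPKM in Ch25h_KO and 27.1 and 27.0 FPKM in Ch25h_WT. Both Ch25h_KO libraries were above both Ch25h_WT libraries by more than the replicates differed, and the log2 change of 0.33 (SE 0.061) missed the threshold (limma adjusted p = 0.110). It passed with limma's trend and robust options (adjusted p = 0.011). The FPKM ratio of Vegfa to Bnip3 was 2.27 and 2.42 in Ch25h_KO, against 1.18 and 1.21 in Ch25h_WT (exact two-sided permutation p = 0.33). The ratio of Vegfa to Egln3 was 3.03 and 3.34 in Ch25h_KO, against 1.19 and 1.18 in Ch25h_WT (exact two-sided permutation p = 0.33).

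**Figure D3:**
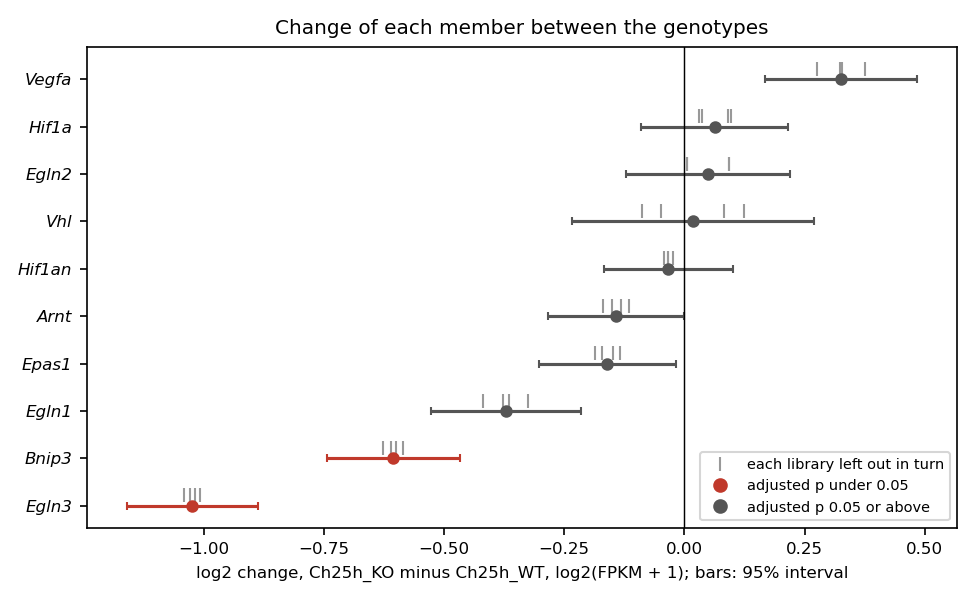
Log2 change of each HIF gene (x axis, Ch25h_KO minus Ch25h_WT on the log2(FPKM + 1) scale) with its 95% interval from limma. Grey ticks give the change with each library left out in turn. Egln3 at -1.02 and Bnip3 at -0.61 passed the adjusted threshold, and Vegfa at 0.33 is the farthest on the higher side.

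The calls for Egln3 and Bnip3 needed all 4 libraries. With any library left out, which leaves a group with a lone library assumed to vary like the others, the limma adjusted p of Egln3 was 0.083 to 0.098 and that of Bnip3 was 0.198 to 0.230, at nearly unaltered changes (-1.04 to -1.01 and -0.63 to -0.59). Bnip3 also missed the threshold with a pseudocount of 0.1 (adjusted p = 0.065) or with no filter on low values (adjusted p = 0.067).

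The order of the levels per length put Hif1a at the top and Hif1an at the bottom of the 10 in both groups. In Ch25h_KO the order was Hif1a, Egln2, Vegfa, Arnt, Epas1, Vhl, Bnip3, Egln1, Egln3 and Hif1an. There the range of Vhl overlapped those of Epas1, Bnip3 and Egln1. In Ch25h_WT it was Hif1a, Egln2, Vegfa, Egln3, Bnip3, Arnt, Egln1, Epas1, Vhl and Hif1an, and the ranges of Egln3 and Bnip3, and of Egln1 and Epas1, overlapped. Egln3 was at rank 9 in Ch25h_KO and rank 4 in Ch25h_WT, and Bnip3 at rank 7 in Ch25h_KO and rank 5 in Ch25h_WT. By its mean over both groups, Hif1a stood above 93.9% of tested loci, Egln2 above 83.9% and Hif1an above 47.9%.

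Upstream sequences of Egln3 and Bnip3, which fell, and of Vegfa, farthest on the other side, are shown because HIF binds DNA at a short core, ACGTG or GCGTG. RefSeq promoters of build GRCm38.p6 were matched by symbol for 9 of the 10 genes, with 11 start sites in all. The 250 bases before the start are given 5′ to 3′ on the gene's strand, with each ACGTG, on either strand, in capitals. GCGTG is left in small letters. The strand of all 11 windows was that of the gene in GENCODE M21, whose nearest annotated start lay 14 bases downstream for Egln3, at the same base for Bnip3 and 8 bases downstream for the Vegfa start. The windows shown come from chr12:54203875-54204124 (minus strand) for Egln3, chr7:138909507-138909756 (minus strand) for Bnip3 and chr17:46032378-46032627 (minus strand) for a Vegfa start.
Egln3: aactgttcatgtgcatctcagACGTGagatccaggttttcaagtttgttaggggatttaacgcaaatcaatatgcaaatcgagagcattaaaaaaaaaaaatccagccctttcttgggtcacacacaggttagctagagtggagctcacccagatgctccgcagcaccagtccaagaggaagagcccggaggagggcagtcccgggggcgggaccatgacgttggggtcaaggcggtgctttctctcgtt
Bnip3: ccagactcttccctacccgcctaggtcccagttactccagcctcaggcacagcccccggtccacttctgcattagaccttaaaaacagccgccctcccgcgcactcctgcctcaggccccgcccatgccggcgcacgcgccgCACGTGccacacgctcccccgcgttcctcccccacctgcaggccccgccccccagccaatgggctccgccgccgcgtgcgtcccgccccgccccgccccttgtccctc
Vegfa: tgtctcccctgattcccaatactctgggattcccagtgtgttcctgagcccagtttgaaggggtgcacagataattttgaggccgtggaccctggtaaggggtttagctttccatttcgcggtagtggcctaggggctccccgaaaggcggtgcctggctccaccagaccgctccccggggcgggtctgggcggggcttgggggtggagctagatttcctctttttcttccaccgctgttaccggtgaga

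Egln3 held an ACGTG beginning 229 bases before its start, Egln1 one at 68 bases, which lies downstream of a GENCODE start 70 bases before the RefSeq one, and Bnip3 a CACGTG at 108 bases, which reads as ACGTG on both strands and is found in 8.62% of the windows of tested genes. The Vegfa window shown held neither core, and the window of its other start held an ACGTG on the opposite strand at 211 bases. Sequence farther than 250 bases before a start was not searched, for Vegfa or any other gene. Among the genes that stood closer between the genotypes, Hif1a and Egln2 also held ACGTG, and Arnt, Vhl and Hif1an did not. The other core, GCGTG, was present on either strand in the windows of Arnt, Bnip3, Egln1, both Egln2 starts and the other Vegfa start. It was absent from those of Egln3, Hif1a, Vhl and Hif1an. Hif1a, like Bnip3, held a CACGTG, at 135 bases, and it had a further ACGTG at 70 bases. In all, 6 of the 11 windows held ACGTG, against 22.6% of 9948 windows of tested genes and 16.6% of all 32851 windows. ACGTG or GCGTG was held by 8, against 57.1% of those of tested genes. Both counts include the window within the Vegfa gene, and that of Hif1a, which lies downstream of the earliest GENCODE start of Hif1a. The count of 8 also includes an Egln2 window that lies within the Egln2 gene. A match in these letters is a description of the sequence and not a bound site.

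Other genes of the pathway were counted in lists, which overlap. P4ha1, P4ha2 and Kdm3a are in both the oxygenase list and the hypoxia response list. Bnip3l is in both the hypoxia response list and that of Bnip3 relatives. Among HIF partners and coactivators, 0 of 8 tested genes passed (median log2 change 0.040). The unadjusted limma p was under 0.05 for 1 higher and 1 lower gene, against 9.38% and 11.5% of all loci. Ahr, the dioxin receptor that shares Arnt as partner, was 4.94 ± 0.0414 FPKM in Ch25h_KO and 4.07 ± 0.195 FPKM in Ch25h_WT (limma adjusted p = 0.140). Cited2, which competes with HIF for its coactivators, was 10.9 ± 1.14 FPKM in Ch25h_KO and 9.50 ± 0.179 FPKM in Ch25h_WT (limma adjusted p = 0.317). On the lower side stood Cited4 at a log2 change of -0.25 and the coactivator gene Ncoa1 at -0.13. Cited4, the 1 lower gene in that count, averaged 0.898 FPKM in Ch25h_KO and 1.27 FPKM in Ch25h_WT. It lay near the filter of 1 FPKM and passed it only through its Ch25h_WT level. Hif3a and Arnt2 averaged at most 0.0462 FPKM in either group.

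Among 19 tested genes of the VHL ubiquitin ligase and of HIF stability, 0 passed (median 0.058). With an unadjusted limma p under 0.05 stood 2 higher and 2 lower genes, against 9.38% and 11.5% of all loci. Siah2, a ubiquitin ligase that targets EGLN hydroxylases, was 13.8 ± 0.0921 FPKM in Ch25h_KO and 10.8 ± 0.0287 FPKM in Ch25h_WT (log2 change 0.33, limma adjusted p = 0.097). Hsp90aa1, a chaperone that holds HIF-1 alpha, was 106.6 ± 1.79 FPKM in Ch25h_KO and 142 ± 1.06 FPKM in Ch25h_WT (log2 change -0.41, limma adjusted p = 0.078). Both passed when only loci averaging 5 FPKM or more were tested and with limma's trend and robust options, alone of the list. These fits called 175 of 7221 and 786 of 10074 loci. Of the subunits that work with Vhl, Cul2 was at a log2 change of -0.20 and Rbx1 at 0.16, and Tceb1 and Tceb2 were at 0.11 and 0.075.

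Other oxygenases that use 2-oxoglutarate, the co-substrate of the EGLN enzymes, were listed with their partner P4hb, and 0 of 24 tested genes passed (median -0.060). Against 9.38% higher and 11.5% lower of all loci, 0 were higher and 3 lower at unadjusted limma p under 0.05. The 3 are the alpha subunits of collagen prolyl hydroxylase and their shared partner. P4ha1 was 22.3 ± 0.365 FPKM in Ch25h_KO and 29.2 ± 0.924 FPKM in Ch25h_WT (limma adjusted p = 0.091), P4ha2 was 11.3 ± 0.912 FPKM in Ch25h_KO and 16.2 ± 0.526 FPKM in Ch25h_WT (limma adjusted p = 0.093), and P4hb was at a log2 change of -0.26 (limma adjusted p = 0.116). These P4ha genes passed when only loci averaging 5 FPKM or more were tested. With limma's trend and robust options 3 genes of the list passed, all lower, against 786 of all 10074 loci. Plod3, a lysyl hydroxylase whose row also carries Mir702, and the histone demethylase gene Kdm4a stood highest, at 0.10 and 0.073.

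Of 32 tested genes of the hypoxia response, without the glycolytic enzymes listed below, 1 fell and 0 rose. At unadjusted limma p under 0.05, 5 were higher and 11 lower, against 9.38% and 11.5% of all loci. The median log2 change was -0.055. The list still holds genes tied to glycolysis, such as Slc2a1, Slc16a3, Pfkfb3, Pfkfb4 and Pdk1. With limma's trend and robust options 12 passed, 4 higher and 8 lower, against 786 of all 10074 loci (407 higher, 379 lower). When only loci averaging 5 FPKM or more were tested, 5 of 26 passed, 1 higher and 4 lower. Among all 7221 loci of that fit 175 passed, 98 higher and 77 lower. P4ha1 and P4ha2, also counted among the oxygenases above, were among the lower genes that passed at both settings. Ak4, a mitochondrial adenylate kinase, fell to 2.05 ± 0.198 FPKM in Ch25h_KO, against 4.45 ± 0.109 FPKM in Ch25h_WT (log2 change -0.84, SE 0.068, limma adjusted p = 0.035). Pdk1, which encodes a kinase that inhibits pyruvate dehydrogenase, was 1.54 ± 0.234 FPKM in Ch25h_KO and 2.89 ± 0.0559 FPKM in Ch25h_WT (limma adjusted p = 0.078). On the higher side stood Plaur, the urokinase receptor, at 190.7 ± 7.41 FPKM in Ch25h_KO and 143.8 ± 2.95 FPKM in Ch25h_WT (limma adjusted p = 0.088, and 0.042 with the filter at 5 FPKM). Hilpda, a lipid droplet protein, was 438 ± 5.07 FPKM in Ch25h_KO and 354 ± 6.53 FPKM in Ch25h_WT (limma adjusted p = 0.102). The glucose carrier Slc2a1 and the lipid droplet coat Plin2 were at log2 changes of -0.033 and -0.018, named after their values were seen. The genes of this list thus stood on both sides, as Vegfa and Egln3 did. Epo was at 0 in all 4 libraries, and Car9, a carbonic anhydrase used as a marker of hypoxia, reached at most 0.160 FPKM.

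Of 17 tested glycolytic enzymes, 2 fell and 0 rose, and their median log2 change of -0.17 lay below that of all loci. An unadjusted limma p under 0.05 was found for 1 higher and 9 lower, against 9.38% and 11.5% of all loci. With the trend and robust options 10 passed, 1 higher and 9 lower, against 786 of all 10074 loci. With the filter at 5 FPKM 4 of 14 passed, all lower, against 175 of all 7221 loci. Pfkl, the liver-type phosphofructokinase, fell to 55.8 ± 0.0757 FPKM in Ch25h_KO, against 86.1 ± 1.55 FPKM in Ch25h_WT, and Tpi1, triosephosphate isomerase, fell to 122 ± 2.18 FPKM in Ch25h_KO, against 191 ± 5.58 FPKM in Ch25h_WT (limma adjusted p = 0.035 for each). These ratios of 0.649 and 0.639 lie beside the 0.642 of Bnip3, but these 2 enzymes were picked by the threshold that Bnip3 also passed. The ratios of the other tested enzymes ranged from 0.703 (Pgam1) to 1.19 (Hk3). On the higher side were Hk3 and Pfkm, at log2 changes of 0.24 and 0.10. Some glycolytic genes have processed copies elsewhere in the genome, so their levels may be uncertain, which was not tested. The calls for Ak4, Pfkl and Tpi1 were lost with any library left out (limma adjusted p of 0.136 to 0.228), with a pseudocount of 0.1 and with no filter on low values.

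**Figure D4:**
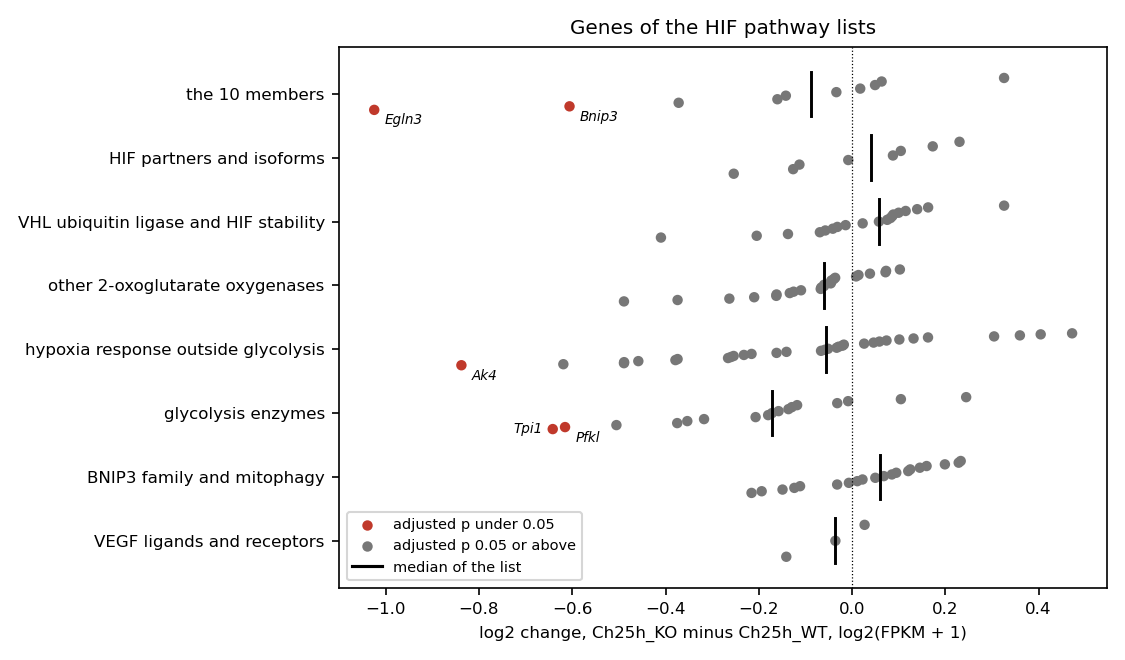
Log2 change (x axis, Ch25h_KO minus Ch25h_WT on the log2(FPKM + 1) scale) of each tested gene of the HIF pathway lists, a row per list. Points are genes, with those past the adjusted threshold named, and vertical bars are list medians, from -0.17 for glycolysis enzymes to 0.059 for BNIP3 family and mitophagy genes.

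Among relatives and partners of Bnip3 in mitochondrial turnover, 0 of 20 tested genes passed (median 0.059). The unadjusted limma p was under 0.05 for 3 higher and 2 lower genes, against 9.38% and 11.5% of all loci. Bnip3l, the closest relative of Bnip3, was 20.8 ± 1.38 FPKM in Ch25h_KO and 24.3 ± 1.41 FPKM in Ch25h_WT (log2 change -0.22, limma adjusted p = 0.221). Sqstm1, an autophagy receptor, was 950.4 ± 5.10 FPKM in Ch25h_KO and 811 ± 11.3 FPKM in Ch25h_WT (limma adjusted p = 0.126). Bcl2l1 was at a log2 change of 0.20 and Gabarapl1 at -0.19. With limma's trend and robust options these 2 and Sqstm1 passed, against 786 of all 10074 loci. With the filter at 5 FPKM 0 of 19 genes of the list passed. Among VEGF ligands and receptors, 0 of 3 tested genes passed (Nrp1 had an unadjusted limma p of 0.043), and 6 more were under the filter. Vegfb was 27.2 ± 3.47 FPKM in Ch25h_KO and 27.8 ± 0.796 FPKM in Ch25h_WT, and the co-receptor genes Nrp1 and Nrp2 were at log2 changes of -0.14 and 0.027. The receptor genes Flt1 and Flt4 reached at most 0.302 and 0.460 FPKM in any library, and Kdr averaged 0.0589 FPKM in Ch25h_KO and 0.0549 FPKM in Ch25h_WT.

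The loci most like Egln3 across the 4 libraries were Apoc1, Cav1, Apoc4, Prtn3 and Tph1. Likeness was the smallest Euclidean distance between centred log2(FPKM + 1) profiles, among 7220 other loci averaging 5 FPKM or more, and the distances were 0.150, 0.242, 0.254, 0.290 and 0.316. Apoc1, an apolipoprotein gene beside Apoe, had 122.1 and 123.8 FPKM in the Ch25h_KO libraries, against 258.5 and 285.1 FPKM in the Ch25h_WT libraries. Cav1, which encodes the coat protein of caveolae, had 12.4 and 12.2 FPKM in Ch25h_KO and 22.1 and 21.6 FPKM in Ch25h_WT. Prtn3, a granule protease of myeloid precursors, had 6.14 and 5.48 FPKM in Ch25h_KO and 9.93 and 11.2 FPKM in Ch25h_WT. Tph1, which makes serotonin in mast cells, had 9.96 and 10.6 FPKM in Ch25h_KO and 20.3 and 16.8 FPKM in Ch25h_WT. With 4 libraries in 2 groups, the likeness mostly restates a similar size of difference between the genotypes.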

How the data were processed

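RNA of 4 libraries of cultured peritoneal macrophages was sequenced. Build mm9 and the tools TopHat2 2.0.14, Cufflinks 2.2.1 and bcl2fastq come from the submitters' processing notes, which give no settings. The deposited table has 24192 lines for 23735 loci, and its values fit FPKM, a unit its header does not state. Low values gave depths of 0.824 and 0.770 for Ch25h_KO and 1 and 0.800 for Ch25h_WT, relative to Ch25h_WT replicate 1. Replicates held identical values at 17 (Ch25h_KO) and 9 (Ch25h_WT) of 10074 tested loci.

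FPKM are not counts, so limma 3.58.1 (R 4.3.3) was fitted to log2(FPKM + 1) of loci averaging 1 FPKM or more, with genotype as the single term and a Benjamini-Hochberg adjusted p under 0.05. Changes on this scale understate those of low genes. The fit was tested on simulated data. Shares and ratios were compared by exact permutation. Alternatives were pseudocount, filter, scaling, limma options, replicate block and each library left out. The members and lists were chosen with earlier results of these data known. Named genes are the members, Ch25h, and from each list the called genes and up to 2 with the smallest p in each direction. Others, Apoe among them, were named after their values were seen. RefSeq names and promoters are of GRCm38.p6, not mm9.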

Additional observations from a re-analysis of the deposited data

How the results depend on the processing

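The number of called loci was 44, and 30, 48 and 43 with a pseudocount of 0.1, median scaling and quantile normalization. It was 18 with no filter on low values (loci at 0 throughout left out), 175 with a mean of at least 5 FPKM, 786 with limma's trend and robust options, and 16 to 21 with a library left out. The log2 change of Bnip3 did not pass at -0.64 with a pseudocount of 0.1, at -0.61 with no filter, or at -0.63 to -0.59 with a library left out. That of Egln3 did not pass at -1.04 to -1.01 with a library left out. Egln1 passed at -0.37 with a mean of at least 5 FPKM and with the trend and robust options, and Vegfa passed at 0.33 with these options. The log2 change of Vhl ranged from -0.089 to 0.12 with a library left out, that of Pfkm from -0.037 to 0.25, that of Nrp2 from -0.033 to 0.087, and that of Vegfb from -0.16 to 0.090. The cause of these shifts was not tested, beyond the smaller number of libraries. Hif1a, Epas1, Arnt, Hif1an and Egln2 kept direction and side of the threshold in all 11 alternatives, but with a library left out Hif1a was at 0.029 to 0.097 and Egln2 at 0.0051 to 0.094. The difference in share ranged from -2.65 to -0.837 percentage points for Egln1, 11.9 to 14.3 for Egln2 and -11.8 to -10.9 for Egln3 with a library left out, and was -1.59, 12.5 and -10.9 when 1 was added to each FPKM.

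The replicate numbers are not stated to pair libraries, and deviations of same-numbered libraries had a Pearson r of 0.012 across 10074 loci. With a replicate block 6 loci passed, and Egln3 (-1.02, adjusted p = 0.075) and Bnip3 (-0.61, adjusted p = 0.142) did not. Depth per gene in fragments was not derived, so the precision of each value is known only from the spread between libraries.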
